A study of Mus musculus with 2 samples.

Results

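The genes described are 36 transcripts of protein folding, quality control and stress signalling in the endoplasmic reticulum (ER), taken by symbol from the 23284 genes of the count files. They comprise 15 chaperones and folding enzymes, 9 genes of ER-associated degradation, 9 stress sensors and transcription factors, and 3 parts of the translocon, the channel through which new proteins enter the ER. RNA was sequenced from mouse primary hepatocytes, liver cells isolated from C57BL/6 animals and cultured, with 1 library in each of 2 groups. In the JMJD3 shRNA group, also called knockdown here, the cells had received a lentivirus carrying a short hairpin RNA against JMJD3, a demethylase of histone H3 lysine 27 encoded by Kdm6b. In the control lentivirus group they had received a control virus. Each library came from a pool of 5 mice, with virus added 24 h after plating and left for 48 h. Cells of both groups then had 5 mM glucose and 10 µM forskolin, which raises cyclic AMP, for 6 h as an imitation of fasting, so every value below is from forskolin-treated cells. The labels used here state neither the age and sex of the animals nor the hairpin sequence.

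The ER folds proteins that a cell secretes or places in membranes, and hepatocytes secrete most plasma proteins. When unfolded proteins accumulate, the membrane sensors IRE1 (Ern1), PERK (Eif2ak3) and ATF6 start the unfolded protein response. IRE1 splices the messenger RNA of Xbp1, ATF6 is cut in the Golgi to release a transcription factor, and PERK slows translation and favours ATF4. XBP1 and ATF6 switch on chaperone and degradation genes, many of them through a promoter sequence called the ER stress response element (ERSE), at which ATF6 acts with NF-Y. Counts per gene do not separate spliced from unspliced Xbp1, and they say nothing of the cutting of ATF6 protein.

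The promoter elements are shown because, of 4 elements searched, they were found in the most of these genes. RefSeq promoter windows of the GRCm38.p6 build matched 30 of the 36 symbols, all but Atf6, Creb3l1, Derl1, Hyou1, Manf and Sec61a1. Each window had 300 bases, with 250 before and 50 after the transcription start. These windows are from another build than the mm9 gene models behind the counts, so their coordinates do not apply to the mm9 positions given further on. Searched on both strands, the ERSE, which is CCAAT and CCACG with 9 unspecified bases between them, lay in the windows of 9 of the 30 genes (30%), against 0.137% of 27025 genes in the table. A shorter form, ERSE-II, which is ATTGG and CCACG with 1 unspecified base between them, lay in those of 2 genes, Herpud1 and Dnajb11, against 0.0444% of all genes. No gene of the 30 had both, and 11 of the 49 genes of the table with either element were among the 36. The letters are given 5′ to 3′ on the strand of the gene, with the fixed bases of the element in capitals; matches that start with CGTGG are in the reverse orientation.
Hspa5, chr2:34772025-34772043, plus strand: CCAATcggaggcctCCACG
Hsp90b1, chr10:86705638-86705656, minus strand: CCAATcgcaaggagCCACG
Hsp90b1, chr10:86705533-86705551, minus strand: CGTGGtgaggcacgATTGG
Calr, chr8:84847075-84847093, minus strand: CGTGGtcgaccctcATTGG
Canx, chr11:50325800-50325818, minus strand: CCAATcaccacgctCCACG
Pdia6, chr12:17266491-17266509, plus strand: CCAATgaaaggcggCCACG
Dnajc3, chr14:118937827-118937845, plus strand: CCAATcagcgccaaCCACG
Creld2, chr15:88819520-88819538, plus strand: CGTGGcgagcctcaATTGG
Syvn1, chr19:6046532-6046550, plus strand: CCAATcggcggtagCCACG
Derl3, chr10:75893242-75893260, plus strand: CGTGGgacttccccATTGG
Herpud1, chr8:94386377-94386387, plus strand: ATTGGgCCACG
Dnajb11, chr16:22857852-22857862, plus strand: ATTGGcCCACG

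Promoters of 3 of these genes are printed in full up to the start site, because their genes had the same element and different ratios: Hsp90b1 passed as lower in the JMJD3 shRNA library, whereas Hspa5 and Canx did not. Capitals mark the fixed bases of the ERSE. In the Hspa5 promoter the element begins 65 bases before the start, and in that of Canx 145 bases before it. The Hsp90b1 promoter holds 2 exact copies in opposite orientations, beginning 212 and 107 bases before the start. Only exact matches to the fixed bases were searched, so copies that differ in a fixed base were not counted in any promoter.
Hspa5, chr2:34771840-34772089, plus strand: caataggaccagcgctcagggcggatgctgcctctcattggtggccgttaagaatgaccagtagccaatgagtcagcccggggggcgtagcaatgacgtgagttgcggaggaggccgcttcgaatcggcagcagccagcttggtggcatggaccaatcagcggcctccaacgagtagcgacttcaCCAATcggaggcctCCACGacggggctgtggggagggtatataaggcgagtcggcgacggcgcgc
Hsp90b1, chr10:86705445-86705694, minus strand: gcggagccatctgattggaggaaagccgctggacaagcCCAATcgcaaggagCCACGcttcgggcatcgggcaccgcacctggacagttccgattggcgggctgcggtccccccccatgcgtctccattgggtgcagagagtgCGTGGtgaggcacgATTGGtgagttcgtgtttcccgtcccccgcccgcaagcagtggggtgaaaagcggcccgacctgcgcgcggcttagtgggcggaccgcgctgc
Canx, chr11:50325674-50325923, minus strand: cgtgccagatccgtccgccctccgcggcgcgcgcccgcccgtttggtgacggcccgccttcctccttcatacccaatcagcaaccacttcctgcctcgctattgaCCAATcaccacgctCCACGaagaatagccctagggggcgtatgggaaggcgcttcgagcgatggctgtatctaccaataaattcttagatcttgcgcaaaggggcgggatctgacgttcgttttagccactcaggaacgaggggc

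The JMJD3 shRNA library held 18334366 counts and the control library 11099562. Kdm6b, the target of the hairpin, stood at 33.0 CPM (counts scaled to library size) in the JMJD3 shRNA library, against 90.7 CPM in the control library, a log2 ratio of -1.46. There was 1 library per group, so differences have no replicate check. The 95% intervals are exact binomial and cover counting error only. A gene was taken as measured when its mean over both libraries was at least 1 CPM, which 12607 genes reached. A gene passed the size rule, as higher or as lower, when JMJD3 shRNA over control was at least 1.5-fold from 1 (0.585 on the log2 scale) and its interval excluded 1. Of all measured genes 12.8% were lower and 15.3% higher by this rule. Their median log2 ratio was 0.00, and their quartiles were -0.34 and 0.37. Fewer cells of a type and less RNA per cell cannot be told apart in such bulk samples. Of 12 hepatocyte markers 11 were measured, and 7 of them passed as lower and 1 as higher. Their log2 ratios ran from -5.85 for Cps1 to 0.78 for Apob, the marker that passed as higher. Alb stood at 794 CPM in knockdown and 1519 CPM in control, Fgb at 846 CPM in knockdown and 3987 CPM in control, and Trf at 4254 CPM in knockdown and 4282 CPM in control, while Cyp2e1 had 0 counts in both libraries. Summed markers of macrophages were 27.9 CPM in the JMJD3 shRNA library and 26.2 CPM in control, and none of the 5 measured passed in either direction, while Clec4f was at 0 in both. Those of endothelial cells were 47.1 CPM in knockdown and 52.3 CPM in control, with 2 of 7 lower and 1 higher. Those of stellate cells and fibroblasts were 233 CPM in knockdown and 250 CPM in control, with 3 of 8 lower. Cholangiocyte markers summed to 8432 CPM in knockdown and 8098 CPM in control, nearly all of it Spp1, with 3 of 6 higher. Markers of lymphocytes and of plasma cells, the latter rich in ER chaperones, summed to 0.884 CPM in knockdown and 1.60 CPM in control, with none measured and Cd3e at 0 in both. The part of these cell type differences in the results below was not tested.

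Of the 36 ER genes 35 were measured, and 12 passed as lower in the JMJD3 shRNA library, 2 as higher and 21 as neither. The share that passed as lower was 34.3%, against the 12.8% of all measured genes, and the share that passed as higher was 5.71%, against 15.3%. Ratios were below 1 in 29 of the 35 genes (82.9%), against 50.3% of all measured genes. The median log2 ratio was -0.44. Most of the 35 genes are abundant, and among the 4921 genes with a mean of at least 50 CPM, 30 of the ER genes included, 8.8% passed as lower, 15% as higher and 44.4% had ratios below 1, with a median of 0.06. Together the 36 genes took 0.626% of the counts in the JMJD3 shRNA library (exact 95% interval 0.622% to 0.630%), against 0.844% in the control library (0.839% to 0.850%). The authors' deposited table compares the same 2 libraries, and its log2 fold changes for the 35 genes lay within 0.00092 of those here. It is therefore no separate check of direction or size. In it 14 of the genes had an adjusted p-value under 0.05 with a negative log2 fold change and 2 with a positive one. Over that whole table of 12838 genes the shares were 11.8% and 14.6%. No source used here states the test behind those p-values. With 1 library per group they cannot rest on a spread between replicates, here or where they are quoted for single genes below.

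The roles differed in their ratios. Chaperones and folding enzymes had a median of -0.60, degradation genes of -0.48, the translocon genes of -0.18, and sensors and transcription factors of -0.09. In the first 2 of these roles 8 of 15 and 2 of 8 measured genes passed as lower and none as higher. Among the sensors and factors 2 of 9 passed in each direction, and none of the 3 translocon genes passed. The medians of sensors and of chaperones lay 0.51 apart on the log2 scale, a distance that the scaling between libraries cannot alter, and those of degradation genes and chaperones 0.12 apart.

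**Figure D1:**
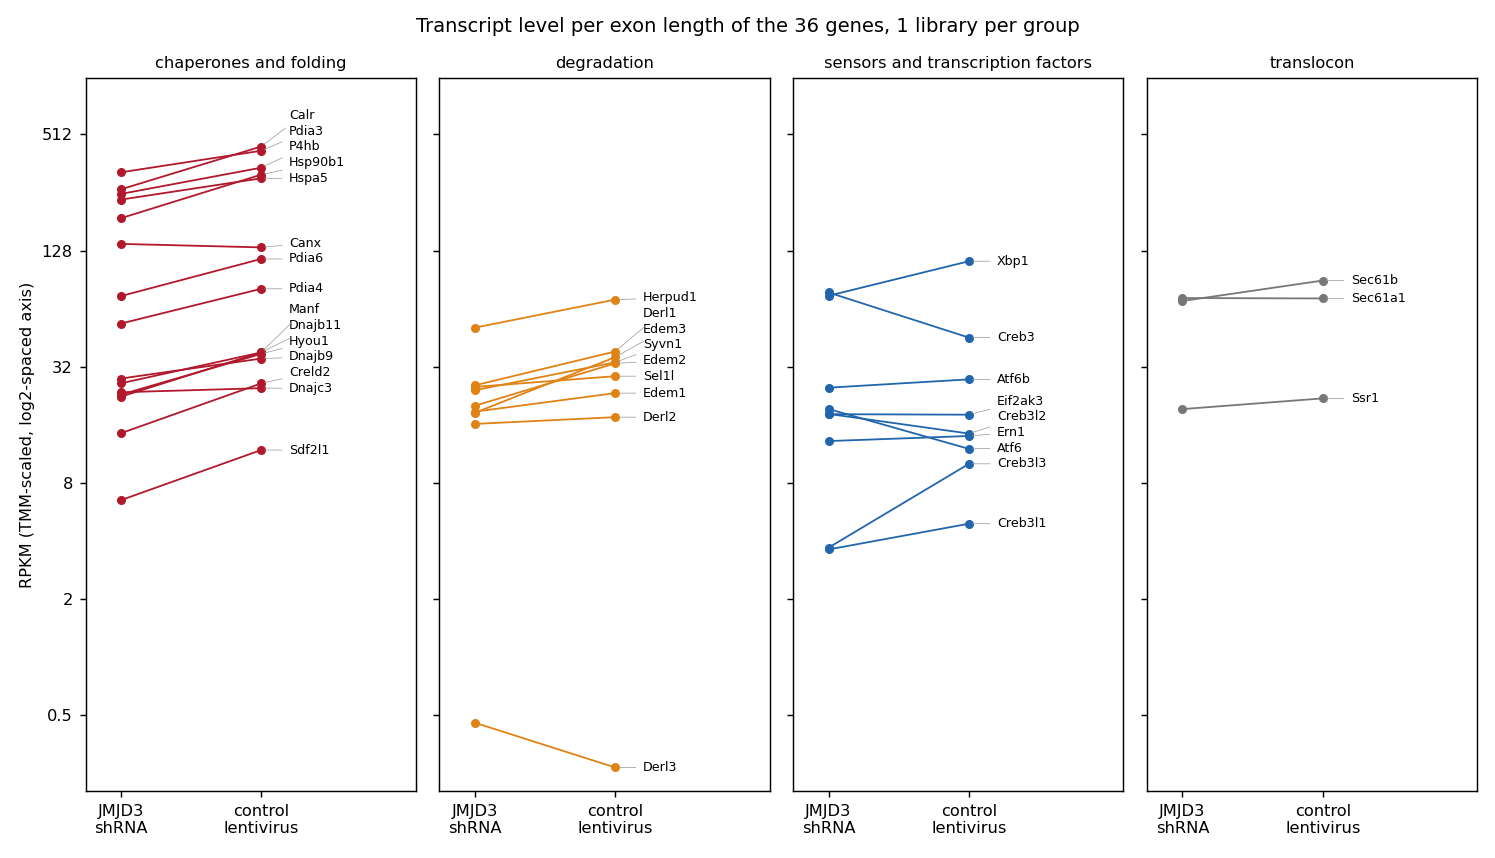
Level of each of the 36 genes as RPKM (TMM-scaled CPM divided by exon length in kb, log2-spaced axis) in the JMJD3 shRNA library and the control library, in 1 panel per role; lines join the libraries of a gene. Most chaperone and degradation lines lie lower in the JMJD3 shRNA library, while Atf6, Creb3 and Creb3l2 lie higher in it.

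Of the 5 general chaperones of the lumen and membrane, Hspa5, Hsp90b1, Calr and Canx were among the most abundant genes of the group per exon length, and Hyou1 was not. Hspa5, also called BiP, the HSP70 of the ER that holds the stress sensors inactive, stood at 235 RPKM (11132 counts) in the JMJD3 shRNA library, against 303 RPKM (8916 counts) in the control library. Its log2 ratio was -0.37 (-0.41 to -0.33), so its interval lay below no difference, but it did not reach 1.5-fold. In mm9 Hspa5 lies at chr2:34627610-34632049 (plus strand), and Hsp90b1 at chr10:86153586-86168189 (minus strand). Hsp90b1, or GRP94, the HSP90 of the ER, stood at 188 RPKM (9398 counts) in knockdown, against 317 RPKM (9820 counts) in control, and passed as lower at -0.75 (-0.79 to -0.71). Thus the interval of Hsp90b1 lay wholly below that of Hspa5. Hyou1, a large HSP70 relative that exchanges the nucleotide of BiP, passed at -0.70 (-0.80 to -0.61), with 22.9 RPKM in knockdown against 37.2 RPKM in control.

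The lectin chaperones, which hold newly made glycoproteins, differed from each other. Calr, calreticulin, the soluble form in the lumen, stood at 266 RPKM in the JMJD3 shRNA library, against 443 RPKM in control, and passed as lower at -0.74 (-0.78 to -0.70). Canx, calnexin, its membrane-anchored relative, stood at 139 RPKM in knockdown against 133 RPKM in control, with a log2 ratio of 0.06 (0.02 to 0.11). Canx was the only chaperone or folding gene of the 15 with a ratio above 1, and with the trend of the ratio with exon length removed, as described further on, it lay below 1 as well, at -0.06 (-0.11 to -0.02). Calr had 9341 counts in knockdown and 9681 in control, and Canx had 10759 in knockdown and 6405 in control, so both intervals were narrow.

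The disulfide isomerases, which form and rearrange disulfide bonds, all had ratios below 1, and 2 of 4 passed. Pdia6 passed as lower at -0.64 (-0.72 to -0.57), with 74.2 RPKM in knockdown against 116 RPKM in control. Pdia4 passed at -0.60 (-0.68 to -0.52), with 53.4 RPKM in knockdown against 81.0 RPKM in control. The more abundant pair lay closer to 1. P4hb, the classical protein disulfide isomerase, stood at 252 RPKM in knockdown against 344 RPKM in control, a log2 ratio of -0.45 (-0.49 to -0.41). Pdia3, or ERp57, which works with calnexin and calreticulin, had 326 RPKM in knockdown against 421 RPKM in control, a log2 ratio of -0.37 (-0.41 to -0.34), and was the most abundant of the 36 genes in the JMJD3 shRNA library. A stretch of 50 bp of the Pdia6 exons, 2.35% of their length, overlaps Atp6v1c2, which had 2 counts in the JMJD3 shRNA library and 1 in control, and 14 bp of Pdia4 overlap Mir704.

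Sdf2l1, Creld2 and Manf, small ER proteins induced by stress, were among the lowest of the group. Sdf2l1, which acts with the J-domain protein ERdj3 and BiP, passed at -0.87 (-1.22 to -0.51), with 6.48 RPKM (130 counts) in the JMJD3 shRNA library, against 11.8 RPKM (147 counts) in control. Creld2, an ER stress-induced protein, passed at -0.86 (-1.07 to -0.65), with 14.4 RPKM in knockdown against 26.2 RPKM in control. Manf, a resident and partly secreted ER protein, passed at -0.77 (-0.90 to -0.63), with 22.3 RPKM in knockdown against 37.9 RPKM in control. With the exon length trend removed Sdf2l1 was at -0.60, Creld2 at -0.66 and Manf at -0.68. Hyou1, at -0.84, and Hsp90b1, at -0.74, were then lower than these. The J-domain proteins, which deliver clients to BiP and stimulate it, lay nearer to 1 and none passed. Dnajb11, or ERdj3, was at -0.53 (-0.64 to -0.43), Dnajb9, or ERdj4, at -0.35 (-0.49 to -0.20) and Dnajc3, or p58IPK, at -0.07 (-0.17 to 0.03). Dnajb11 had 26.2 RPKM in knockdown and 37.9 RPKM in control. Dnajb9 had 27.7 RPKM in knockdown and 35.2 RPKM in control, and Dnajc3 23.5 RPKM in knockdown and 24.7 RPKM in control. Only the interval of Dnajc3 reached no difference. It lay below no difference with library totals, at -0.11 (-0.20 to -0.01), and with upper quartile scaling, at -0.12 (-0.22 to -0.02). Dnajc3 was at -0.25 (-0.34 to -0.15) and Dnajb9 at -0.22 (-0.36 to -0.08) with the exon length trend removed. In the authors' deposited table Dnajb11 had an adjusted p-value of 0.0460, and this table's 9 lower chaperone and folding genes were the 8 above and Dnajb11.

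Of the 9 degradation genes 8 were measured, and all 8 ratios were below 1. ER-associated degradation recognises proteins that fail to fold, draws them back to the cytosol and marks them with ubiquitin. The EDEM family of mannosidase-like proteins, which single out misfolded glycoproteins, held the lowest pair, Edem3 and Edem2. Edem3 stood at 18.4 RPKM (2199 counts) in the JMJD3 shRNA library, against 35.8 RPKM (2656 counts) in control, and passed at -0.96 (-1.04 to -0.88). The gene is at chr1:153602504-153669458 (plus strand) in mm9. Edem2 passed at -0.73 (-0.87 to -0.59), with 20.0 RPKM in knockdown against 33.2 RPKM in control. Edem1 was at -0.32 (-0.42 to -0.22) and did not pass, with 18.7 RPKM in knockdown and 23.3 RPKM in control. Its interval lay above those of both relatives, but with the exon length trend removed Edem1 was at -0.54 (-0.64 to -0.45) and its interval overlapped that of Edem2, at -0.65 (-0.79 to -0.52).

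No gene of the ligase complex and no derlin passed the rule. Herpud1, a scaffold of the ligase complex and a strongly stress-induced gene, stood at 50.9 RPKM in the JMJD3 shRNA library, against 71.2 RPKM in control, a log2 ratio of -0.48 (-0.59 to -0.38). Syvn1, or HRD1, the ubiquitin ligase, was also at -0.48 (-0.59 to -0.38), and its adaptor Sel1l was at -0.19 (-0.27 to -0.10). Syvn1 had 24.1 RPKM in knockdown and 33.7 RPKM in control, and Sel1l 25.1 RPKM in knockdown and 28.5 RPKM in control. Their intervals overlapped with the exon length trend removed, Syvn1 at -0.56 (-0.66 to -0.45) and Sel1l at -0.44 (-0.52 to -0.36). Herpud1 was then at -0.36 (-0.46 to -0.26). Syvn1 shares 89 bp, 2.43% of its exons, with Mrpl49 on the other strand, which was at -0.49, and strand was not used in counting. Among derlins, membrane proteins of the exit channel, Derl1 lay just short of 1.5-fold at -0.58 (-0.69 to -0.48). It passed with library totals, at -0.62, and with upper quartile scaling, at -0.63, and it had an adjusted p-value of 0.0261 in the authors' deposited table. Derl2 was at -0.12 (-0.26 to 0.02), above the interval of Derl1. Its own interval lay below no difference with the exon length trend removed, at -0.19 (-0.33 to -0.05). The same held with library totals, at -0.15 (-0.29 to -0.01), and with upper quartile scaling, at -0.17 (-0.30 to -0.03). Levels were 25.6 RPKM in knockdown and 38.3 RPKM in control for Derl1, and 16.1 RPKM in knockdown and 17.5 RPKM in control for Derl2. Derl3 had 11 counts in the JMJD3 shRNA library and 4 in control, under the minimum, and was not measured.

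Among the signalling sensors, Atf6 passed as higher and the others did not pass. Atf6 stood at 19.3 RPKM (2604 counts) in the JMJD3 shRNA library, against 12.0 RPKM (1004 counts) in control, a log2 ratio of 0.69 (0.58 to 0.79). Atf6 spans chr1:172634588-172797902 (minus strand) in mm9. Its relative Atf6b was at -0.14 (-0.28 to -0.01), with 24.9 RPKM in knockdown and 27.5 RPKM in control. Ern1, which encodes the kinase and nuclease IRE1, was at -0.09 (-0.24 to 0.06), with 13.1 RPKM in knockdown against 14.0 RPKM in control. Eif2ak3, which encodes PERK, was at 0.01 (-0.11 to 0.13), with 18.1 RPKM in knockdown against 18.0 RPKM in control. Both of these intervals included no difference, though with the exon length trend removed both lay below it, with Ern1 at -0.19 (-0.34 to -0.04) and Eif2ak3 at -0.13 (-0.25 to -0.01). Atf6 has a summed exon length of 7463 bp, and with the trend of the ratio with exon length removed it no longer passed, at 0.37.

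Xbp1, the substrate of IRE1 and a factor for chaperone and secretory genes, passed as lower. It stood at 74.6 RPKM (2430 counts) in the JMJD3 shRNA library, against 113 RPKM (2279 counts) in control, a log2 ratio of -0.60 (-0.68 to -0.51). Xbp1 lies in mm9 at chr11:5420970-5425875 (plus strand). In the authors' deposited table it had an adjusted p-value of 0.0208. The call rests on a small margin, since Xbp1 was at -0.58 with DESeq2 size factors and at -0.46 with the exon length trend removed, and passed under neither. Atf6 and Xbp1 thus lay on opposite sides of 1, and their intervals were far apart.

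The CREB3 family, membrane-bound transcription factors cut in the Golgi like ATF6, held both extremes of the 35 measured genes. Creb3l3, or CREBH, a factor enriched in liver that acts on genes of fasting lipid metabolism and the acute phase, was the lowest. It stood at 3.68 RPKM (152 counts) in the JMJD3 shRNA library, against 10.0 RPKM (257 counts) in control, and passed at -1.45 (-1.74 to -1.15). In mm9 Creb3l3 lies at chr10:80547078-80561617 (minus strand), and Creb3 at chr4:43575506-43579932 (plus strand). Creb3, or Luman, was the highest of all, at 77.5 RPKM (2221 counts) in knockdown, against 45.2 RPKM (804 counts) in control, and passed at 0.78 (0.66 to 0.90). A stretch of 133 bp, 8.41% of the Creb3 exons, overlaps Gba2 on the opposite strand, so the count of Creb3 is uncertain; Gba2 itself was at -0.07 (-0.28 to 0.14). Creb3l2, or BBF2H7, was at 0.34 (0.19 to 0.49) and Creb3l1, or OASIS, at -0.44 (-0.80 to -0.09) on 148 counts in knockdown and 125 in control, and neither passed. Creb3l2 had 18.2 RPKM in knockdown and 14.4 RPKM in control. In the authors' deposited table the adjusted p-values of Creb3l3, Creb3 and Atf6 were 2.90e-07, 0.00197 and 0.00691. Creb3l3 lay on the same side of 1 as the median of the hepatocyte markers given above, -0.94. Those markers did not move alike, running from -5.85 for Cps1 to 0.78 for Apob, and their part in its ratio was not tested.

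**Figure D2:**
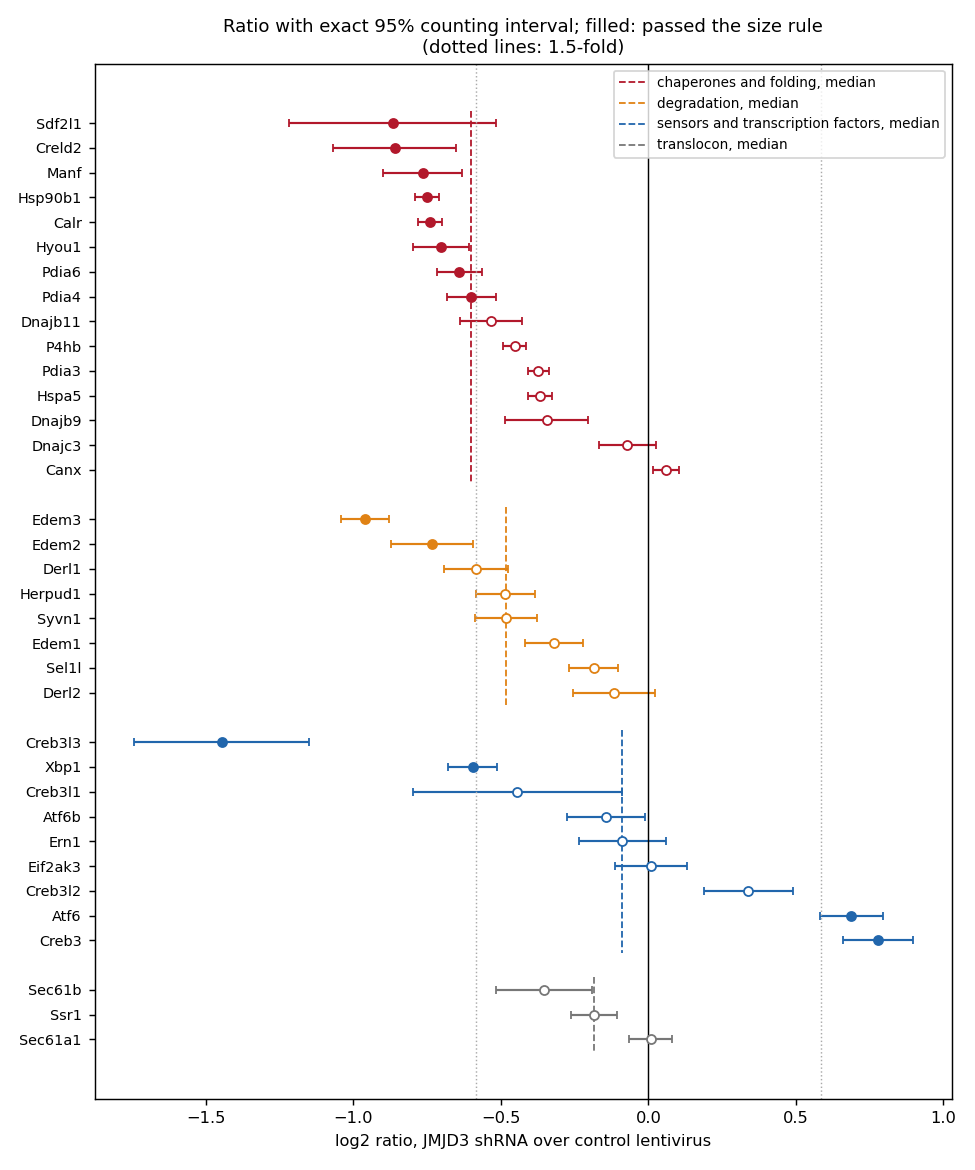
Log2 ratio of JMJD3 shRNA over control lentivirus for the 35 measured genes, with exact 95% counting intervals; filled points passed the size rule, dotted lines mark 1.5-fold and dashed lines the median of each role. The 8 chaperone and folding genes that passed lie between -0.87 and -0.60, whereas the sensors and factors run from -1.45 for Creb3l3 to 0.78 for Creb3.

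The 3 translocon genes lay within 1.5-fold of no difference. Sec61a1, the channel itself, stood at 72.6 RPKM in the JMJD3 shRNA library, against 72.2 RPKM in control, a log2 ratio of 0.01 (-0.07 to 0.08). Its sign turned with library totals, to -0.03, with upper quartile scaling, to -0.04, and with the exon length trend removed, to -0.01. Sec61b, a small subunit of that channel, was at -0.35 (-0.52 to -0.19), with 70.0 RPKM in knockdown and 89.5 RPKM in control. Ssr1, a subunit of the translocon-associated protein complex, was at -0.18 (-0.26 to -0.11), with 19.3 RPKM in knockdown and 21.9 RPKM in control. Sec61b has the shortest exons of the 36 genes, 552 bp, and Ssr1 the longest, 9306 bp. With the exon length trend removed Sec61b lay above 1, at 0.10 (-0.06 to 0.27), while Ssr1 passed as lower, at -0.59.

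Exon length moved with the ratio across the whole table. In 5 equal groups of measured genes from short to long exons, the median log2 ratio was -0.27, -0.10, 0.00, 0.09 and 0.28. Of the 15 chaperones and folding genes, 14 had ratios below the median of all measured genes. With a smooth trend removed, the medians were -0.55 for chaperones and folding, -0.55 for degradation genes, -0.13 for sensors and factors and -0.01 for the translocon genes, so that sensors and chaperones lay 0.42 apart. Edem3 and Hyou1, with long exons of 6604 and 4432 bp, thus lay far under genes of like length, whose group medians were 0.28 and 0.09. Calls that depended on it, beside those of Atf6 and Xbp1 given above, were those of Pdia4 and Pdia6, at -0.55 and -0.54 without the trend and no longer lower by the rule, and those of Derl1 and Ssr1, at -0.61 and -0.59 and then lower by it. The source of this trend was not tested.

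**Figure D3:**
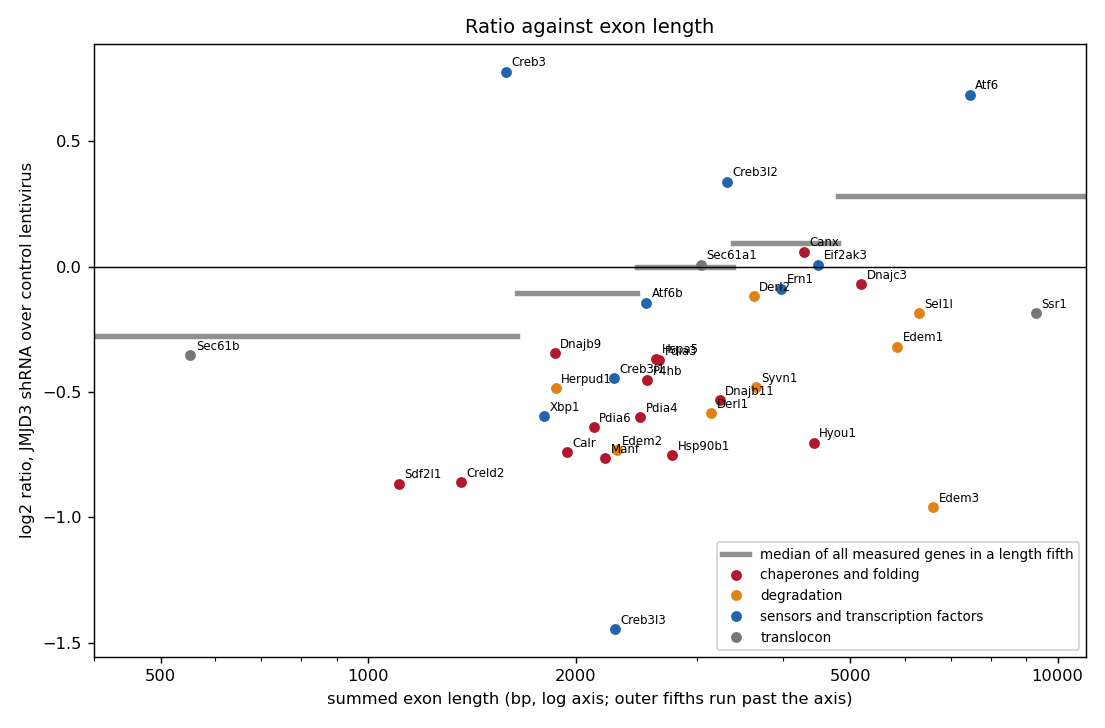
Log2 ratio of JMJD3 shRNA over control lentivirus against summed exon length (bp, log axis) for the 35 measured genes, coloured by role; grey bars are the medians of all measured genes in 5 groups of exon length. Creb3 and Atf6 lie above the bars, and Edem3, Hyou1 and Creb3l3 far below them.

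Genes with an ERSE or ERSE-II in the promoter window did not all move alike. Their median log2 ratio was -0.51 over 10 measured genes, of which 4 passed as lower and none as higher, and their range went from -0.86 for Creld2 to 0.06 for Canx. The 19 measured genes with a window and neither element had 6 lower, 1 higher and a median of -0.35. For comparison, 12.8% of all measured genes were lower and 15.3% higher. Within the chaperones and folding enzymes the medians were -0.59 for 8 genes with an element and -0.45 for 5 without, and both sets reached similar lowest values, Creld2 at -0.86 and Sdf2l1 at -0.87. Hyou1 and Manf, which passed as lower at -0.70 and -0.77, had no window and are in neither set. None of the 7 measured sensors and factors with a window held an element. Hspa5, with its exact ERSE match 65 bases before the start as printed above, lay at -0.37, while Hsp90b1 with 2 exact matches lay at -0.75. Inexact copies were not counted, so the number of elements in these 2 promoters was not compared. The cyclic AMP response element, TGACGTCA, was in none of the 30 genes' windows, against 2.03% of all genes. The core of the unfolded protein response element, TGACGTG, was in that of Hspa5, against 2.22% of all genes. A match describes letters in a window and does not show that a factor binds there.

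Other genes of the same pathways were taken from lists, and of each list the pair with the highest level per exon length (RPKM) and the extremes of the ratio are named. Further folding enzymes and helpers of the ER had a median of -0.25 over 37 measured genes, of which 4 were lower and 1 higher. In this list Sep15 was at -0.23 and Txndc5, a disulfide isomerase, at 0.01, while Uggt2, a folding sensor for glycoproteins, was the highest at 0.74. Fkbp14, a prolyl isomerase, was the lowest at -1.83 (-2.05 to -1.61), on 258 counts in knockdown and 569 in control. The other lower genes, named after their values were seen, were Txndc11 at -1.13, the oxidase Ero1lb at -0.95 and Cnpy2 at -0.74. Further degradation genes had a median of -0.21 over 31 genes, 2 of them lower and none higher. Vcp, the ATPase that pulls substrates out of the membrane, was at -0.25, Aup1 at 0.05, Selk the lowest at -0.70 and Ube2g1 the highest at 0.51. Further translocon and glycosylation genes had a median of -0.24 over 32 genes, none of them lower and 1 higher. Ssr3 was at 0.09 and Srp14 at -0.40, with Srp9, the lowest, at -0.57 and Tram2, on 130 counts in knockdown and 36 in control, the highest at 1.16. The shares of lower genes in these lists were under the background of 12.8%, while the medians were below the 0.00 of all measured genes. With the exon length trend removed these medians were -0.14 for folding, -0.19 for degradation and -0.10 for translocon and glycosylation genes. Uggt2, Cnpy2 and Selk then no longer passed, at 0.47, -0.45 and -0.41. Srp9 passed as lower with library totals, at -0.60, and with upper quartile scaling, at -0.61, and under both Txndc5 lay below 1, at -0.03 and -0.04.

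Genes of the ATF4 arm had ratios mostly above 1. PERK and related kinases act through the factor ATF4 on genes of amino acid supply and of stress adaptation. Of 27 genes measured, 11 passed as higher and none as lower, against backgrounds of 15.3% and 12.8%, with a median of 0.45 and 23 ratios above 1. Stc2, a secreted stress protein, was the highest at 1.65 (0.81 to 2.60), on 71 counts in knockdown and 14 in control, and Aars, an aminoacyl-tRNA synthetase, was the lowest at -0.06. Atf4 itself stood at 219 RPKM in the JMJD3 shRNA library, against 180 RPKM in control, a log2 ratio of 0.28 (0.22 to 0.34), and did not pass. Atf5 was at -0.06, and at 0.06 with the exon length trend removed, though its exons and those of Aars overlap other genes. Named after their values were seen, the regulator Sesn2 was at 1.34 (1.16 to 1.52), the pseudokinase Trib3 at 1.14 (0.96 to 1.32) and asparagine synthetase Asns at 0.78 (0.66 to 0.89), and all passed. Ddit3, likewise named afterwards and also called CHOP, the factor linked to cell death under ER stress, was at 0.02 (-0.18 to 0.22) on 533 counts in knockdown and 326 in control, and turned to -0.01 with library totals and -0.03 with upper quartile scaling.

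**Figure D4:**
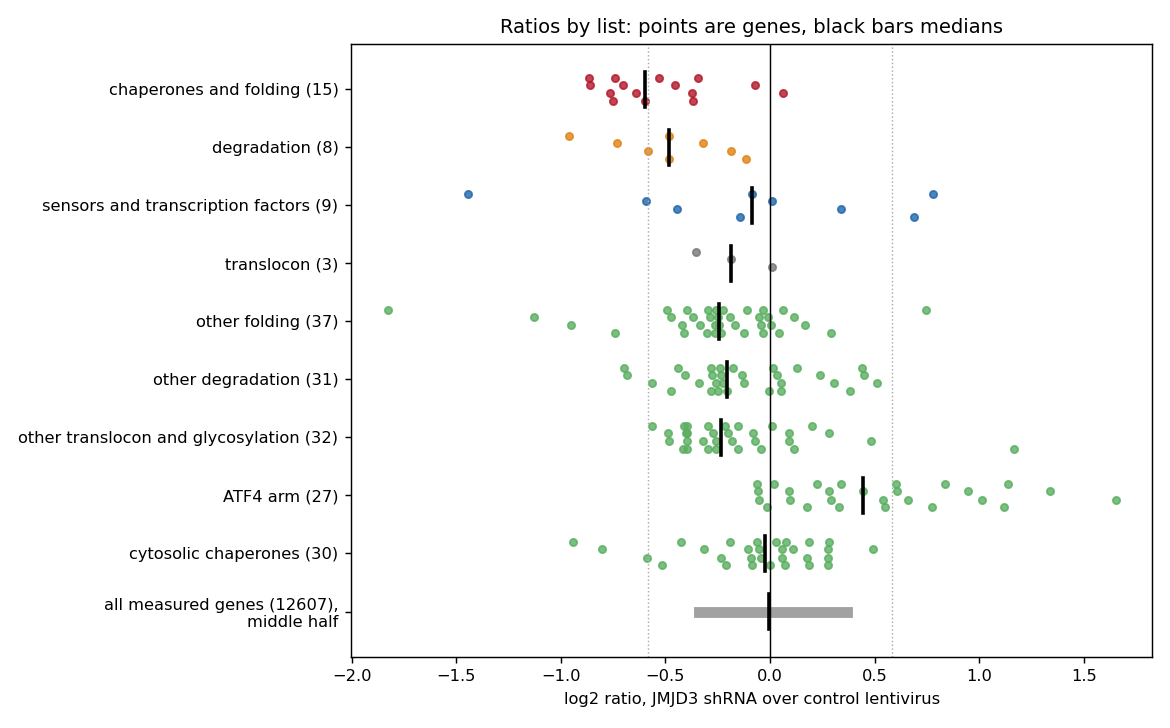
Log2 ratios of JMJD3 shRNA over control lentivirus for each measured gene (points) of the 4 roles and of 5 other lists, with the number of genes in brackets, black bars at the medians, dotted lines at 1.5-fold and a grey bar for the middle range of all 12607 measured genes. Chaperones lie mostly to the left, with a median of -0.60, and the ATF4 arm mostly to the right, with a median of 0.45.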

How the data were processed

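RNA was sequenced as 100 bp paired reads, per the labels. Per the file headers, featureCounts 1.4.6-p4 gave the authors' raw count of reads for each gene from STAR alignments and UCSC gene models of mm9, with strand ignored. Its command shows no setting for pairs, so both reads of a pair may be counted and intervals are then too narrow. The submitters' processing notes name STAR 2.5.3a, Trimmomatic 0.36 and edgeR among other tools. The authors' deposited table gives log2 fold changes and p-values whose test is not given in the sources used here; its p-values are quoted as the authors' own.

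Counts were scaled by library totals and TMM factors (edgeR 4.0.16, R 4.3.3) to CPM, and to RPKM with the deposited exon length. Log2 ratios had no pseudocount, with Clopper-Pearson 95% intervals of the counts (scipy 1.17.1). All genes were processed together, and the procedure was tested on simulated data. No p-value was computed, since each group has 1 library. Alternatives were library totals, DESeq2 1.42.0 size factors, upper quartile scaling, other filters, halved counts, removal of an exon length trend, exclusion of overlapping genes and a 2-fold threshold. The 36 genes and all lists were chosen with earlier results of these data known. All 36 are reported; of other lists, the most abundant pair by RPKM, the highest and the lowest gene are named.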

Additional observations from a re-analysis of the deposited data

How the results depend on the processing

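The median of the ER genes and the medians of the 3 main roles stayed negative under each alternative tried. The 2-fold threshold has no bearing on medians and is left out of that statement. The number of genes lower lay between 10 and 13 under every alternative other than the 2-fold threshold. With the exon length trend removed, 1 gene passed as higher, Creb3, since Atf6 did not, and with overlapping genes left out 1 passed, Atf6, since Creb3 was not used. At 2-fold, 0 genes were higher and 1, Creb3l3, was lower. Scaling moved the overall median between -0.49 and -0.43. The ATF4 arm had 9 to 12 genes higher at 1.5-fold and 5 at 2-fold. No paired analysis was possible because each group had 1 library, which also means that no library could be left out. Depth limits Derl3, with 11 counts in knockdown and 4 in control, and the intervals of Sdf2l1, Creb3l1 and Creb3l3.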

Other observations

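Chaperones of the cytosol, which fold proteins outside the ER, had a median log2 ratio of -0.02 over 30 measured genes, of which 3 were lower and none higher in the JMJD3 shRNA library, against backgrounds of 12.8% and 15.3%. The abundant Hsp90ab1 and Hspa8 were at -0.05 and -0.09, although the ER forms of the same families, Hsp90b1 and Hspa5, were at -0.75 and -0.37. Hsp90aa1 was the highest at 0.49 (0.45 to 0.53). Hspa1b, the lowest at -0.94 on 72 counts in knockdown and 86 in control, passed as lower, as did, named after their values were seen, the co-chaperone Bag3 at -0.80 and the small heat shock protein Hspb8 at -0.59. Hspb8 lay just past 1.5-fold and no longer passed with DESeq2 size factors, at -0.58, or with the exon length trend removed, at -0.46. Hspa8 lay above 1, at 0.01, with that trend removed. The sign of the median of this list was positive with the exon length trend removed, at 0.06, and with overlapping genes left out, at 0.06.

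Outside the 36 genes, 9 measured genes carried an ERSE in the promoter window, and their median log2 ratio was -0.27. By the size rule 2 of them (22.2%) were lower and 1 (11.1%) higher, against 12.8% and 15.3% of all measured genes. Another 4 carried an ERSE-II, with none passing and a median of -0.23. For the cyclic AMP response element, which 332 such genes carried, the median was -0.04. By the size rule 11.4% of these were lower and 14.2% higher, near the 12.8% and 15.3% of all measured genes. The core of the unfolded protein response element was carried by 291 measured genes outside the 36, with a median of 0.02. Of those 12% were lower and 13.7% higher, also near the shares of all measured genes.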
